A study of Mus musculus with 36 samples.

Results

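The enzymes described here are cytochrome P450 monooxygenases of family 4 that add a hydroxyl group to the terminal (omega) carbon of fatty acids and related lipids. Members were all array probes, other than control probes, whose gene name in the scanner files was Cyp4a10, Cyp4a14, Cyp4a12a, Cyp4a12b, Cyp4a31, Cyp4a32, Cyp4f14, Cyp4f15 or Cyp4v3. This rule used no measured value and found 11 of 56605 probes, for 8 of the 9 genes, among 37074 distinct gene names on the array; Cyp4a32 had no probe under its own name. All 11 were among the 36551 probes tested, for which some group had 5 or more of its 6 arrays marked as well above background.

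Liver RNA of 36 male C57Bl/6J mice was measured on one-colour Agilent arrays, with 1 array per mouse and 6 mice in each of 6 groups. The genotype labelled AAKO lacks adipose triglyceride lipase (ATGL), the enzyme that starts triglyceride breakdown, in white adipose tissue, and CTRL is its control; the gene deletion is therefore outside the organ measured. Mice of each genotype were fed freely, fasted for 24 h, or fed and given 3 mg/kg CL316243 by gavage at Zeitgeber time 10, and every mouse was killed during the dark phase, at Zeitgeber time 16. CL316243 is an agonist of the beta 3 adrenergic receptor, which drives fat breakdown in adipocytes. The design asks how liver RNA depends on fat released from adipose tissue in the fed, fasted and stimulated states. Ages and the promoter that drives the deletion were not given in the labels used here.

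The fed groups were labelled as experiment 2 and the fasted and CL316243 groups as experiment 1, so in every comparison with fed mice the condition and the experiment cannot be told apart. Genotype comparisons within a condition, and fasting against CL316243, lay within 1 experiment. A gavage time was given for the CL316243 groups only. Each array had between 33131 and 37203 probes well above background. The summed level of 6 hepatocyte markers (Alb, Apoa1, Ttr, Tat, Cyp3a11, Serpina1a) lay between 12.01 and 12.37 on the log2 scale on all 36 arrays. Marker sums here and below are of unlogged intensities, so the brightest markers weigh most. Between genotypes, 4 of these 6 were called lower and 1 higher in fasted AAKO mice, where 50% of all tested probes were called. In a whole liver, fewer cells of a type and less RNA per cell cannot be told apart.

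As background, omega-hydroxylation is a minor route of fatty acid oxidation that grows when the liver receives more fatty acid than mitochondria oxidise. The omega-hydroxy acid is oxidised by alcohol and aldehyde dehydrogenases to a dicarboxylic acid, which is shortened in peroxisomes. In mouse liver the Cyp4a10, Cyp4a14 and Cyp4a31 genes are known targets of PPARα, the nuclear receptor for fatty acids, whereas Cyp4a12a and Cyp4a12b are male-biased genes controlled by growth hormone and androgen. Cyp4f14 and Cyp4f15 belong to a subfamily that inactivates leukotriene B4 and other eicosanoids, and Cyp4v3 is the mouse counterpart of human CYP4V2, the gene of Bietti crystalline dystrophy.

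The Cyp4a genes lie in a tandem cluster of close copies, so what each probe can bind bears on its values. On the build mm9 of the files, the 3 Cyp4a10 probes were placed at chr4:115205268-115205756 (A_52_P257774), chr4:115197445-115197926 (A_52_P6588) and chr4:115198463-115198522 (A_55_P2092030), and all 3 also listed a RefSeq transcript of Cyp4a32. The first and second of these intervals span 489 and 482 bases for probes of 60 bases, so those probes are not contiguous in the genome. The Cyp4a14 probe A_66_P118338 was placed at chr4:115168609-115168668 and listed no other gene. The Cyp4a31 probe A_55_P2024033 (chr4:115242872-115242931) also listed Cyp4a10, and A_55_P2050628 (chr4:115251553-115251612) listed Cyp4a31 as its only RefSeq gene. The Cyp4a12a probe A_55_P2043083 (chr4:115005258-115005317) also listed Cyp4a12b, and A_55_P2152607 (chr4:115111580-115111639) listed Cyp4a12b only. Cyp4f14 (A_51_P452768, chr17:33042214-33042273), Cyp4f15 (A_51_P136303, chr17:32840088-32840147) and Cyp4v3 (A_52_P302345, chr8:46391395-46391454) had 1 probe each, with 1 gene listed. An exon or UTR annotation of this build was not used here.

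The sequences below are those of probes that read different genes or places of the cluster, and show how far probes for close copies share letters. Capitals mark the 11 bases shared by Cyp4a10 A_52_P6588 and Cyp4a31 A_55_P2024033.
Cyp4a10 A_52_P6588: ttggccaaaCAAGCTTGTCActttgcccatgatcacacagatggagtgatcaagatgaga
Cyp4a31 A_55_P2024033: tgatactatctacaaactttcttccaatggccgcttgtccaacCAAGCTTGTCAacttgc
Cyp4a10 A_55_P2092030: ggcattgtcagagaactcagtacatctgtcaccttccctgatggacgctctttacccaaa
Cyp4a14 A_66_P118338: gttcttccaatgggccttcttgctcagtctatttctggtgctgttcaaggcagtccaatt
Set against each other without gaps, A_52_P6588 and A_55_P2024033 matched at 22 of 26 overlapping bases. Among all 55 pairs of member probes the longest shared run was 12 bases, between the Cyp4a14 probe and A_55_P2024033. Probes were compared with each other and not with the transcripts of other members, so these runs do not show which transcripts a probe can bind.

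Values below are log2 intensities minus the 75th percentile of the array, so that 0 is the brightness of that percentile; levels of different probes cannot be set against each other. Group errors are SDs over 6 mice. Differences and their standard errors (SE) come from 1 limma fit to all 36 arrays with the wash batch as a factor, adjusted by Benjamini-Hochberg over all tested probes, and a difference is called at an adjusted p under 0.05. Comparisons that use the same fed or the same CTRL group share those arrays. The labels do not say more of the mice than their group, so p-values measure the spread between these samples.

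**Figure D1:**
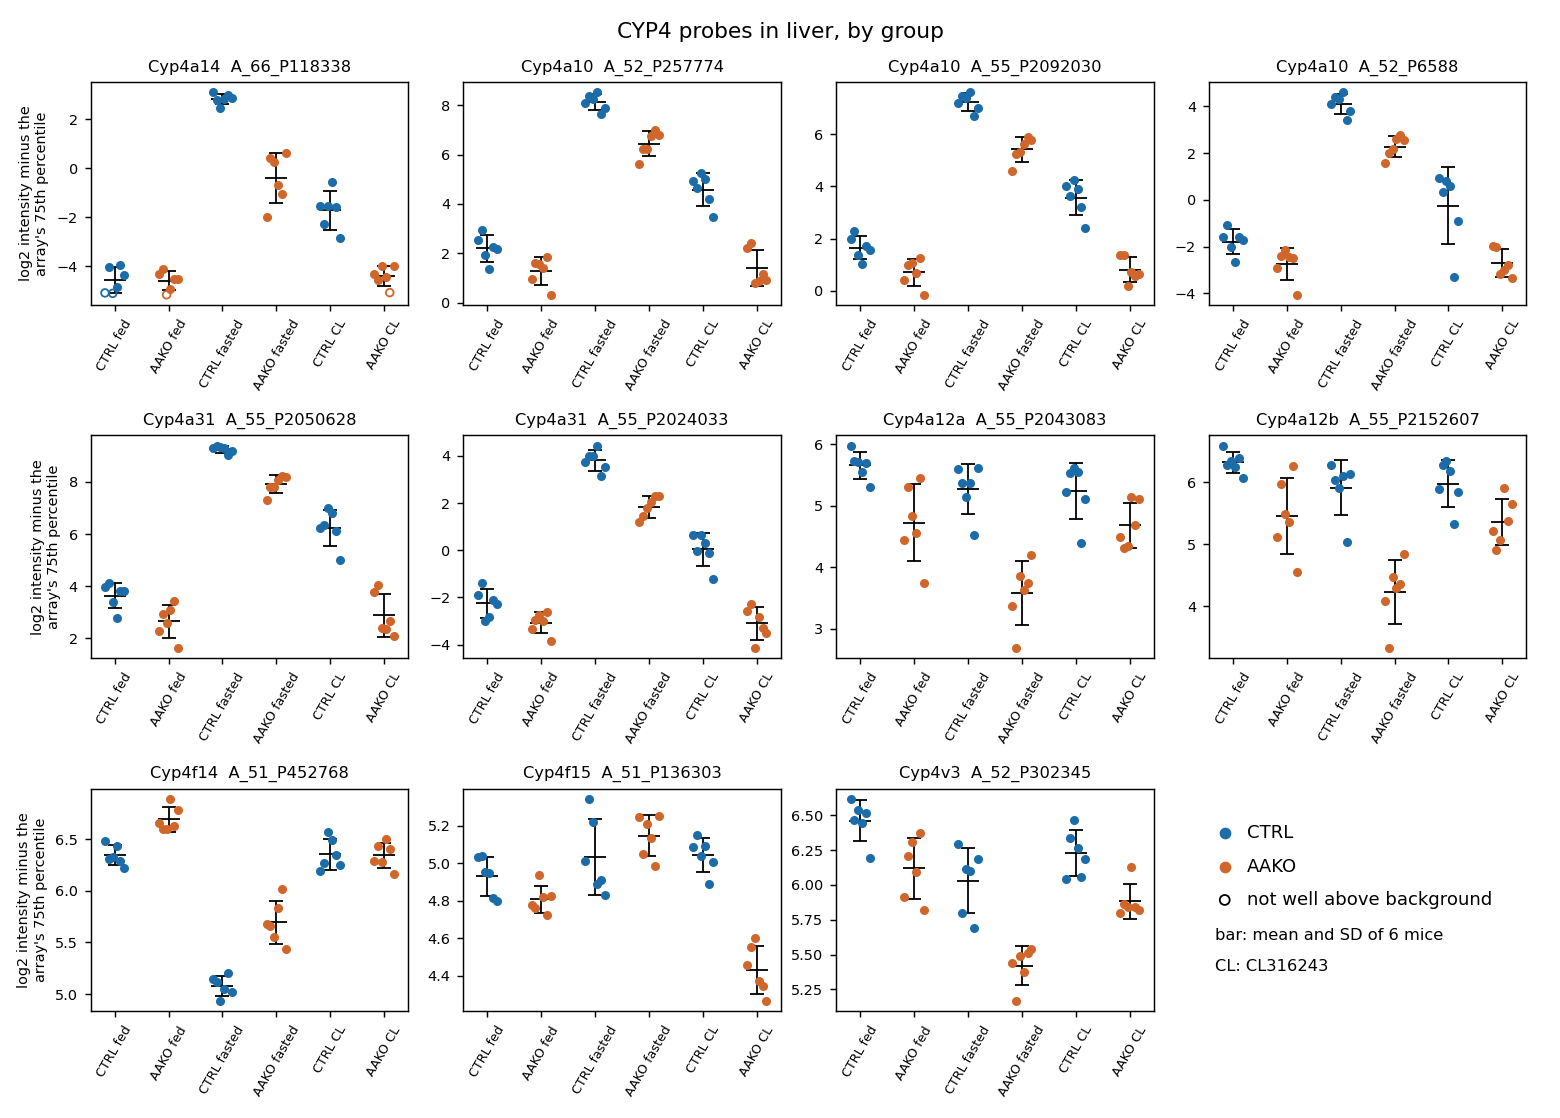
Log2 intensity minus the array's 75th percentile (y axis, a scale of its own in each panel) for the 11 probes in the 6 groups. Points are mice (open where the probe was not well above background) and bars are the mean and SD of 6. The 6 probes of Cyp4a14, Cyp4a10 and Cyp4a31 were highest in fasted CTRL mice and lay near their fed level in AAKO mice given CL316243, while Cyp4a12a and Cyp4a12b were lowest in fasted AAKO mice.

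Fasting gave the largest differences among the member genes, in the inducible omega-hydroxylases. In CTRL mice all 6 probes of Cyp4a14, Cyp4a10 and Cyp4a31 were higher when fasted than when fed, by 5.57 to 7.40 on the log2 scale. In AAKO mice they were also higher, by 4.20 to 5.25. CL316243 raised all 6 in CTRL mice, by 1.53 to 2.84, while in AAKO mice none of them was called and the differences ran from -0.04 to 0.19. Over all 11 member probes, 8 were called for fasting in CTRL mice, where 43.9% of all tested probes were called; 6 were higher (21.1% of all) and 2 lower (22.8% of all), and for 7 the fed and fasted mice did not overlap (22.1% of all). In AAKO mice fasting called 11 of 11 (64.6% of all), 7 higher (29.6% of all) and 4 lower (35.1% of all), and 9 were without overlap (43.4% of all). CL316243 called 6 of 11 in CTRL mice (23.5% of all), all higher (11.6% of all), with 5 without overlap (11.8% of all). In AAKO mice it called 2, Cyp4f14 and Cyp4f15 (31.2% of all), both lower (15.1% of all) and without overlap (14.5% of all).

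Cyp4a14, a fatty acid omega-hydroxylase, was read by 1 probe, which was near the limit of detection in 3 groups. The listed start of this probe in its transcript is base 78, and those of the other member probes are base 736 or later. Whether this position bears on its brightness was not tested. Its spot was marked as above background on 4 of 6 arrays of CTRL fed mice, 5 of 6 of AAKO fed mice and 5 of 6 of AAKO mice given CL316243. CTRL fed values ran from -5.10 to -3.95 (median -4.59) and AAKO fed values from -5.16 to -4.10 (median -4.53). In fasted CTRL mice they ran from 2.45 to 3.10 (median 2.84), and in fasted AAKO mice from -1.98 to 0.64 (median -0.19). After CL316243 the CTRL values ran from -2.83 to -0.54 (median -1.54) and the AAKO values from -5.07 to -3.98 (median -4.37). Every fasted mouse was above every fed mouse in both genotypes, and after CL316243 the genotypes did not overlap. Fasted AAKO mice had an SD of 1.02 against 0.22 in fasted CTRL mice, and their values split by wash batch: 0.41, 0.27 and 0.64 in batch 1 and -1.98, -0.66 and -1.03 in batch 2. The part of the wash batch in this spread was not tested.

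The fasting difference of Cyp4a14 was 7.40 ± 0.35 (SE) in CTRL mice (limma adjusted p = 2.82e-16) and 4.20 ± 0.35 in AAKO mice (limma adjusted p = 3.38e-12). It was lower in fasted AAKO than in fasted CTRL mice by a log2 difference of -3.23 ± 0.35, which is 9.38-fold (limma adjusted p = 3.81e-09), and within wash batches 1 and 2 this difference was -2.33 and -4.14. After CL316243 the genotype difference was -2.71 ± 0.35 (limma adjusted p = 7.26e-07). The genotype difference changed from fed to fasted by -3.19 ± 0.49 (limma adjusted p = 6.78e-06) and from fed to CL316243 by -2.67 ± 0.49 (limma adjusted p = 0.000395). Sizes that rest on the dim groups depended on the background correction. The difference between the fasted and CL316243 genotype differences was not called. It was called with normexp correction (-1.92, limma adjusted p = 2.87e-06) and in the authors' table of values (-1.32, limma adjusted p = 0.00373). Both values mean a larger genotype difference when fasted. With normexp correction the fasting difference was 4.63 in CTRL and 1.83 in AAKO mice, the CL316243 difference in CTRL mice was 0.95, the CL316243 genotype difference was -0.90 and the CL316243 interaction was -0.88, all still called; in wash batch 1 alone the fasting interaction was -2.11.

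Cyp4a10, an omega-hydroxylase often used as a marker of PPARα activity, gave the same order of group means on all 3 probes over the 4 highest groups: CTRL fasted, AAKO fasted, CTRL CL316243, CTRL fed. On A_52_P6588 the last step, 1.53, lay within the larger SD of 1.64. On A_52_P257774, the brightest Cyp4a10 probe, CTRL fed values ran from 1.36 to 2.96 (median 2.21), CTRL fasted values from 7.66 to 8.52 (median 8.16) and CTRL CL316243 values from 3.45 to 5.25 (median 4.78). The AAKO values ran from 0.32 to 1.85 when fed (median 1.47), from 5.63 to 6.99 when fasted (median 6.49) and from 0.81 to 2.41 after CL316243 (median 1.05). The AAKO fed and AAKO CL316243 means lay 0.12 apart, within the larger SD of 0.72, while each of the other neighbours in the order lay further apart than the larger of their SDs.

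Fasting raised A_52_P257774 by 5.93 ± 0.32 in CTRL mice, which is 61-fold, and by 5.15 ± 0.32 in AAKO mice (limma adjusted p = 3.63e-15 and 5.49e-15). It was lower in AAKO than in CTRL mice by -1.69 ± 0.32 when fasted (3.24-fold, limma adjusted p = 4.16e-05) and by -3.20 ± 0.32 after CL316243 (9.17-fold, limma adjusted p = 9.92e-09). Within wash batches 1 and 2 these were -1.51 and -1.87 when fasted, and -2.94 and -3.69 after CL316243. Of the AAKO mice given CL316243, only replicates 3 and 4 were in wash batch 2. Here and below, wash batch 2 values for that group rest on these mice. The difference between genotypes was larger after CL316243 than when fasted, by 1.5 ± 0.45 (limma adjusted p = 0.00986), and larger after CL316243 than when fed (-2.28 ± 0.45, limma adjusted p = 0.000848). For the change from fed to fasted the value was -0.78 ± 0.45 and was not called (limma adjusted p = 0.185).

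The other Cyp4a10 probes gave like differences. On A_55_P2092030 the genotype difference was -1.81 ± 0.28 when fasted and -2.77 ± 0.28 after CL316243 (limma adjusted p = 2.45e-06 and 1.38e-08), and its CL316243 interaction was -1.82 ± 0.40 (limma adjusted p = 0.00236). On the dimmer A_52_P6588 they were -1.83 ± 0.47 and -2.44 ± 0.47 (limma adjusted p = 0.00161 and 0.000252), and neither was called in wash batch 1 alone (-1.61 and -1.73, limma adjusted p = 0.105 and 0.123). Its CL316243 interaction of -1.47 ± 0.67 was not called (limma adjusted p = 0.173). One array bears on this: CTRL CL316243 replicate 5 read -3.31 on A_52_P6588, below the other 5 (-0.90 to 0.94), but 4.22 on A_52_P257774, inside the range of the others. Without that array the A_52_P6588 interaction was -2.13 and its difference between fasting and CL316243 was 1.26, and both were called (limma adjusted p = 0.00338 and 0.0434). With normexp correction its CL316243 genotype difference was -1.47, still called. On A_55_P2092030 the difference between fasting and CL316243, 0.95 ± 0.40, was not called (limma adjusted p = 0.0643), but was called without AAKO CL316243 replicate 1 or 2, CTRL CL316243 replicate 6 or AAKO fasted replicate 1 (1.06 to 1.17), and its fasting interaction was called without AAKO fed replicate 6 (-1.03). The rise of A_52_P6588 with CL316243 in CTRL mice (1.53 ± 0.47, limma adjusted p = 0.0171) was not called without replicate 1, 3 or 4 of that group (1.30, 1.32 and 1.34).

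Deviations from the group means correlated between A_52_P257774 and A_55_P2092030 with a Pearson r of 0.97 and a Spearman rho of 0.97 over 36 arrays (r = 0.96 and 0.98 within the wash batches). Between A_52_P257774 and A_52_P6588 they were 0.74 and 0.91, with an r of 0.68 in wash batch 1, which holds the low array, and 0.97 in wash batch 2. These are descriptions of probes hybridised with the same RNA and carry no test.

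Cyp4a31, another close copy of Cyp4a10, moved like it. On A_55_P2050628, CTRL fed values ran from 2.79 to 4.11 (median 3.81), CTRL fasted values from 9.02 to 9.37 (median 9.31) and CTRL CL316243 values from 5.02 to 6.98 (median 6.28). The AAKO values ran from 1.64 to 3.42 when fed (median 2.77), from 7.30 to 8.22 when fasted (median 7.95) and from 2.09 to 4.03 after CL316243 (median 2.53). The genotypes overlapped when fed and were fully apart in both other conditions.

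Of the 11 probes, A_55_P2050628 had the largest genotype difference after CL316243, -3.39 ± 0.31, which is 10.5-fold (limma adjusted p = 3.04e-09; -3.27 and -3.69 within the wash batches), and the smallest called one among the inducible probes when fasted, -1.35 ± 0.31, which is 2.54-fold (limma adjusted p = 0.000579). The difference between these, 2.04 ± 0.44, was called (limma adjusted p = 0.000602). Its CL316243 interaction was -2.41 ± 0.44 (limma adjusted p = 0.000432) and its fasting interaction was -0.36 ± 0.44 (limma adjusted p = 0.571). On A_55_P2024033, which also lists Cyp4a10, the genotype difference was -1.97 ± 0.32 when fasted and -3.15 ± 0.32 after CL316243 (limma adjusted p = 5.61e-06 and 1.60e-08), and the CL316243 interaction was -2.33 ± 0.45. Its fasting interaction (-1.15 ± 0.45, limma adjusted p = 0.0486) and its difference between fasting and CL316243 (1.18 ± 0.45, limma adjusted p = 0.0460) were near the threshold. The first lost its call when any of 15 of 24 arrays was left out (CTRL fed replicates 3 to 6, AAKO fed 2 to 5, CTRL fasted 1 to 4 and AAKO fasted 1 to 3; -1.18 to -0.98), and so did the second (CTRL fasted replicates 1, 3, 5 and 6, AAKO fasted 3 to 6, CTRL CL316243 1 to 4 and AAKO CL316243 3, 5 and 6; 0.95 to 1.21). With normexp correction the first was -1.58 and called, and the second was -0.20 and not called, with the opposite sign. On this probe normexp correction also lowered the CL316243 genotype difference to -1.68, the CL316243 response in CTRL mice from 2.29 to 1.43 and the CL316243 interaction to -1.38, all still called.

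**Figure D2:**
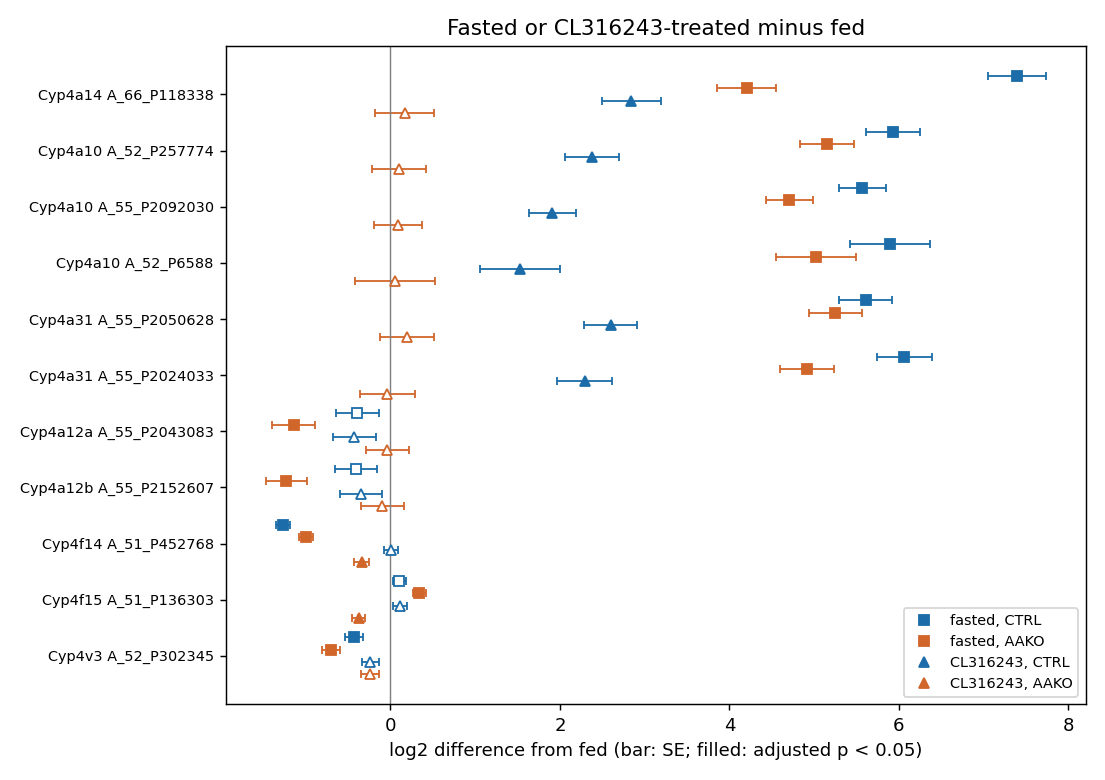
Log2 difference from fed mice of the same genotype (x axis, with SE) for each probe; squares are fasted and triangles CL316243-treated mice, blue CTRL and orange AAKO, filled where called. The blue triangles of the 6 inducible probes lie between 1.53 and 2.84 and the orange ones between -0.04 and 0.19, whereas the squares of both genotypes lie above 4.

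Cyp4a12a and Cyp4a12b, arachidonic acid omega-hydroxylases that make 20-HETE, showed no called response to fasting in CTRL mice and were lower in AAKO than in CTRL mice when fasted. On the Cyp4a12a probe, CTRL values ran from 5.31 to 5.98 when fed (median 5.70), from 4.53 to 5.62 when fasted (median 5.37) and from 4.40 to 5.61 after CL316243 (median 5.38). The AAKO values ran from 3.75 to 5.45 when fed (median 4.69), from 2.69 to 4.21 when fasted (median 3.69) and from 4.32 to 5.14 after CL316243 (median 4.59). Fasted AAKO mice were the lowest group, and among the other 5 groups no neighbours in the order of means differed by more than their larger SD.

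In fasted mice Cyp4a12a was lower in AAKO than in CTRL by -1.69 ± 0.26, which is 3.23-fold (limma adjusted p = 1.85e-06; -1.51 and -1.86 within wash batches 1 and 2), and the genotypes did not overlap. Fasting lowered it in AAKO mice by -1.14 ± 0.26 (limma adjusted p = 0.000235), while the CTRL difference was -0.39 ± 0.26 (limma adjusted p = 0.225); the interaction was -0.75 ± 0.36 and was not called (limma adjusted p = 0.109). The genotype differences of -0.94 ± 0.26 when fed and -0.55 ± 0.26 after CL316243 were not called (limma adjusted p = 0.265 and 0.122). The fasted genotype difference was larger than that after CL316243 by -1.14 ± 0.36 (limma adjusted p = 0.0153). This is the opposite order to Cyp4a10 A_52_P257774 and the Cyp4a31 probes, of which A_55_P2024033 was -0.20 and not called with normexp correction. The other Cyp4a10 probes and Cyp4a14 had no call. With normexp correction and in the authors' table Cyp4a14 was called, in the same order as Cyp4a12a (-1.92 and -1.32). With the slide as a fixed factor the value for Cyp4a12a was -0.93 and not called (limma adjusted p = 0.0722). Neither wash batch alone called it (-1.01 and -1.29, limma adjusted p = 0.211 and 0.1). Without AAKO fed replicate 6 the fasting interaction was -0.96 and called (limma adjusted p = 0.0287).

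The Cyp4a12b probe followed the Cyp4a12a probe closely, with an r and a rho of 0.98 for deviations from the group means over 36 arrays. The Cyp4a12a probe lists both genes. The probes share no run longer than 6 bases on the same strand, but neither was compared with the transcript of the other gene. The short run therefore does not show that each probe reads 1 gene. CTRL values ran from 6.08 to 6.59 when fed (median 6.31), from 5.04 to 6.28 when fasted (median 6.06) and from 5.32 to 6.34 after CL316243 (median 6.03). The AAKO values ran from 4.55 to 6.26 (median 5.42), from 3.33 to 4.85 (median 4.33) and from 4.91 to 5.90 (median 5.29) in the same order. Its fasting interaction was called without AAKO fed replicate 6, AAKO fasted replicate 6 or CTRL fasted replicate 5 (-1.01 to -0.95). Its genotype difference was -1.68 ± 0.25 when fasted (limma adjusted p = 1.16e-06) and -0.61 ± 0.25 after CL316243 (limma adjusted p = 0.0713). The difference between these, -1.07, was called (limma adjusted p = 0.0186). It was not called in wash batch 1 or 2 alone (-0.83 and -1.35) or with the slide as a fixed factor (-0.86). The CL316243 difference became a call without CTRL CL316243 replicate 5 (-0.75) or AAKO CL316243 replicate 4 (-0.73), and the same was so of Cyp4a12a without CTRL CL316243 replicate 5 (-0.73).

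Cyp4f14 moved the opposite way to the inducible genes on fasting, and in CTRL mice it had no called response to CL316243. CTRL values ran from 6.22 to 6.49 when fed (median 6.32), from 4.93 to 5.20 when fasted (median 5.08) and from 6.19 to 6.58 after CL316243 (median 6.31). The AAKO values ran from 6.60 to 6.89 when fed (median 6.64), from 5.43 to 6.02 when fasted (median 5.67) and from 6.17 to 6.50 after CL316243 (median 6.35). Fasting lowered it in CTRL mice by -1.27 ± 0.08 and in AAKO mice by -1.0 ± 0.08 (limma adjusted p = 1.76e-13 and 4.21e-12). It was the only member probe that was higher in fasted AAKO than in fasted CTRL mice with a call, by 0.62 ± 0.08, which is 1.54-fold (limma adjusted p = 2.44e-07; 0.50 and 0.74 within the wash batches).

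In fed mice Cyp4f14 was also the only member whose genotypes did not overlap (0.638% of all probes did not), with a difference of 0.35 ± 0.08 that was not called over all probes (limma adjusted p = 0.110). It was called with normexp correction and in the values of the authors' table (0.37 and 0.36, limma adjusted p = 0.0432 and 0.0358). After CL316243 the genotypes overlapped and the difference was -0.00 ± 0.08 (limma adjusted p = 0.996). CL316243 lowered Cyp4f14 in AAKO mice by -0.34 ± 0.08 (limma adjusted p = 0.00200), and in CTRL mice the difference was 0.01 ± 0.08. The interaction, -0.35 ± 0.12, missed the threshold (limma adjusted p = 0.0521), and passed it without CTRL fed replicate 1 or 4, AAKO fed replicate 2, CTRL CL316243 replicate 1 or 6, or AAKO CL316243 replicate 2 or 4 (-0.39 to -0.37). It also passed with normexp correction (-0.38), quantile normalization (-0.35), the filter on all 36 arrays, 1 probe per gene, only the compared groups, no wash term, the slide as a random block or the replicate block, and in the authors' table (-0.40). The fasting interaction, 0.27 ± 0.12, was not called (limma adjusted p = 0.0740). It was called without AAKO fed replicate 4 or AAKO fasted replicate 6 (0.32 in both), with quantile normalization (0.31), with median centring (0.34) and in the authors' table (0.30).

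Cyp4f15 was lowest in AAKO mice given CL316243, with values from 4.26 to 4.60 (median 4.41), below every mouse of the other 5 groups, which ran from 4.72 to 5.34. Its genotype difference was -0.61 ± 0.08 after CL316243 (limma adjusted p = 7.37e-07; -0.64 and -0.56 within the wash batches) and 0.11 ± 0.08 when fasted (limma adjusted p = 0.243). The difference between these was 0.72 ± 0.11 (limma adjusted p = 7.89e-06), and the CL316243 interaction was -0.49 ± 0.11 (limma adjusted p = 0.00334). Fasting raised it in AAKO mice by 0.34 ± 0.08 (limma adjusted p = 0.000321). In CTRL mice the fasting difference was 0.10 ± 0.08 and not called (limma adjusted p = 0.297). It was called there with quantile normalization (0.23) and in the authors' table (0.26). The fasting interaction of Cyp4f15 was not called. Without CTRL fasted replicate 2 its fasted genotype difference (0.18) and its fasting interaction (0.30) were called.

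Cyp4v3 was lower in AAKO mice by -0.61 ± 0.10 when fasted, which is 1.53-fold (limma adjusted p = 1.28e-05; -0.60 and -0.62 within the wash batches), and by -0.35 ± 0.11 after CL316243 (limma adjusted p = 0.0153), a call that neither wash batch alone gave (-0.39 and -0.24). The fed difference was -0.34 ± 0.10 and was not called (limma adjusted p = 0.368). Values ran from 5.69 to 6.29 (median 6.11) in fasted CTRL mice and from 5.17 to 5.54 (median 5.46) in fasted AAKO mice, without overlap. Fasting lowered Cyp4v3 by -0.43 ± 0.10 in CTRL and -0.70 ± 0.10 in AAKO mice (limma adjusted p = 0.00109 and 6.84e-07), and no interaction was called. CL316243 differences of -0.24 ± 0.10 in CTRL and -0.24 ± 0.11 in AAKO mice were not called, but the first was without CTRL fed replicate 6 (-0.29) and the second without AAKO fed replicate 6 or AAKO CL316243 replicate 4 (both -0.30). Against CL316243, fasting lowered it in AAKO mice by -0.46 ± 0.11, which was -0.30 in the authors' table.

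**Figure D3:**
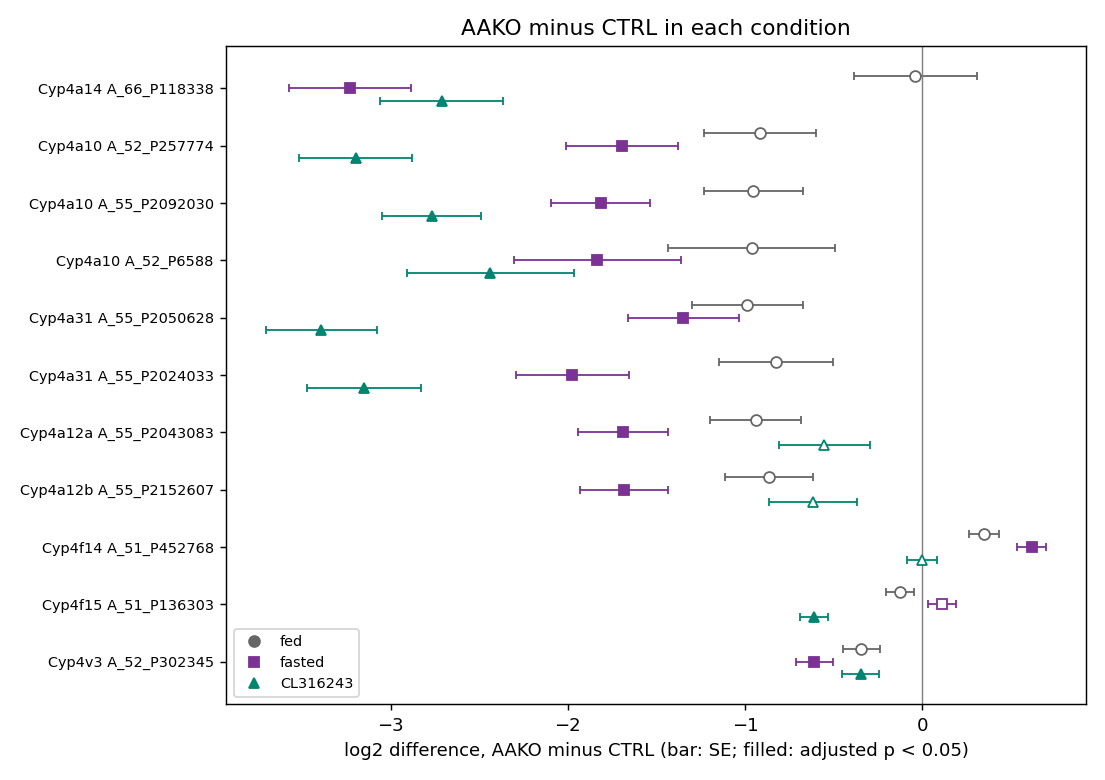
Log2 difference between AAKO and CTRL mice (x axis, with SE) for each probe when fed (circles), fasted (squares) and after CL316243 (triangles), filled where called. No circle is filled, Cyp4f14 lies at 0.62 when fasted, and the inducible probes lie between -1.35 and -3.23 when fasted and between -2.44 and -3.39 after CL316243.

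Set over all members, no probe differed between genotypes when fed in the limma fit (0.0958% of all tested probes were called), although 9 of 11 had an unadjusted p under 0.05, as did 2349 of the 36551 tested probes. When fasted 10 of 11 were called (50% of all), 9 lower (26.8% of all) and 1 higher (23.2% of all) in AAKO mice, and all 10 were without overlap between genotypes (21.2% of all). After CL316243 8 of 11 were called (23.7% of all), all lower in AAKO mice (11.5% of all), and 6 were without overlap (10.7% of all). Medians over the 11 probes were -0.86, -1.69 and -2.44 in the fed, fasted and CL316243 comparisons, beside medians over all tested probes of 0.00, -0.02 and 0.02. Cyp4a10 and Cyp4a31 had more than 1 probe each, so they weigh more in these medians than the other genes. In size, the genotype difference was larger after CL316243 than when fasted for Cyp4a10, Cyp4a31 and Cyp4f15. It was smaller for Cyp4a14, Cyp4a12a, Cyp4a12b, Cyp4f14 and Cyp4v3. Not all of these changes were called. The medians therefore do not rank the conditions for the family. The fasting interaction was called for 2 of 11 (34.1% of all), both lower (18.3% of all), and the CL316243 interaction for 6 of 11 (10.5% of all), all lower (4.73% of all). The difference between the fasted and CL316243 genotype differences was called for 7 of 11 (32.1% of all), 5 higher (14.3% of all) and 2 lower (17.8% of all). Fasting against CL316243, within 1 experiment, was called for 7 of 11 in CTRL mice (36.9% of all), 6 higher (17.8% of all) and 1 lower (19.1% of all), and all 7 were without overlap (17.3% of all). In AAKO mice it was called for 11 of 11 (60.8% of all), 7 higher (27.5% of all) and 4 lower (33.3% of all), all without overlap (38% of all). The 6 inducible probes were higher when fasted by 3.01 to 4.55 in CTRL and by 4.03 to 5.05 in AAKO mice. With normexp correction the AAKO difference went from 4.03 to 1.76 for Cyp4a14 and from 4.95 to 3.26 for Cyp4a31 A_55_P2024033, both still called.

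The enzymes that act after omega-hydroxylation were read from lists. Of 15 genes of peroxisomal import, activation and oxidation, 13 rose on fasting in CTRL mice, where 21.1% of all tested probes rose. Their median was 0.81, beside -0.03 over all tested probes. When fasted, 15 of 15 were lower in AAKO than in CTRL mice (26.8% of all), with a median of -1.50, beside -0.02. Ehhadh, the peroxisomal bifunctional enzyme, was lower by -3.57 ± 0.24 and Acot3, a peroxisomal acyl-CoA thioesterase, by -2.74 ± 0.54, and the smallest differences were in Scp2 (-0.43 ± 0.06) and the acyl-CoA synthetase Slc27a2 (-0.33 ± 0.07). After CL316243 12 of 15 were lower in AAKO mice (11.5% of all tested probes) and 3 did not pass. Of the 12, Acot3 (-3.85 ± 0.54) and Acot4 (-2.14 ± 0.25) lay at one end and Acaa1a (-0.36 ± 0.08) and Slc27a2 (-0.22 ± 0.07) at the other. In CTRL mice fasting raised Acot3 by 4.01 ± 0.54, Ehhadh by 3.40 ± 0.24 and Acaa1a by 0.29 ± 0.08.

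Of 6 dehydrogenases that turn omega-hydroxy acids into dicarboxylic acids, 3 were lower and 1 higher in fasted AAKO mice (median -0.48, beside -0.02), where 26.8% of all tested probes were lower and 23.2% higher. Aldh3a2, the fatty aldehyde dehydrogenase, differed by -2.88 ± 0.18, Adh4 by -1.55 ± 0.16 and Aldh9a1 by -0.89 ± 0.10, and Adh7 was higher by 1.90 ± 0.27. After CL316243, where 23.7% of all tested probes were called, 4 of 6 were lower (Aldh3a2 by -1.85 ± 0.18, Adh4 by -0.67 ± 0.16, Adh1 by -0.43 ± 0.13 and Aldh9a1 by -0.40 ± 0.10). Fasting in CTRL mice, which called 43.9% of all tested probes, raised 2 and lowered 3 of them, with Adh7 at 0.94 ± 0.27, Aldh3a2 at 0.71 ± 0.18, Adh4 at -0.84 ± 0.16 and Adh1 at -1.40 ± 0.13. Of 4 genes that pass electrons to P450 enzymes, Por, the P450 reductase, was higher in fasted AAKO mice by 0.71 ± 0.14 and Cyb5a was lower by -0.17 ± 0.07, which is 2 of 4 called, as were 50% of all tested probes. After CL316243 Cyb5b (-0.40 ± 0.14) and Cyb5a (-0.22 ± 0.07) were lower and none was higher. On fasting in CTRL mice Por rose by 0.57 ± 0.14, and Cyb5b, Cyb5r3 and Cyb5a changed by -1.23 ± 0.14, -1.15 ± 0.09 and -0.22 ± 0.07.

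Among 15 genes of PPARα, its partners and targets, 9 were lower and 3 higher in fasted AAKO mice (median -0.79, beside -0.02). Of all tested probes 26.8% were lower and 23.2% higher there. After CL316243 9 were lower (11.5% of all tested probes) and none higher (median -0.88, beside 0.02). When fasted the ends of the list were Fgf21, a liver hormone (-5.47 ± 0.59), Vnn1, a pantetheinase (-4.71 ± 0.24), Ppargc1a, a coactivator (0.95 ± 0.24), and Rxrb, a receptor partner (0.98 ± 0.11). After CL316243 they included Fgf21 (-4.59 ± 0.59), Acot1 (-3.09 ± 0.38) and Cpt1a (-0.34 ± 0.12). Fasting in CTRL mice raised 9 (21.1% of all tested probes) and lowered 1 (22.8% of all). They ran from Ppara itself (-0.41 ± 0.13) and Creb3l3 (0.39 ± 0.08) to Fgf21 (4.09 ± 0.59) and the lipid droplet gene Cidec (5.88 ± 0.41). Vnn1 was the only gene of this list called in fed mice.

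A list of 10 genes, male-biased liver genes together with Stat5b and Ghr of the growth hormone pathway, was read beside Cyp4a12a and Cyp4a12b. Of these 10, 5 were higher and 3 lower in fasted AAKO mice (median 0.14, beside -0.02). Of all tested probes 23.2% were higher and 26.8% lower there. Elovl3, a fatty acid elongase, was lower by -3.10 ± 0.25 and Ghr, the growth hormone receptor, by -0.45 ± 0.10, while Hsd3b5 and Cyp7b1, which act on steroids, were higher by 1.14 ± 0.24 and 1.05 ± 0.24. After CL316243, where 23.7% of all tested probes were called, Elovl3 (-0.76 ± 0.25) and Ugt2b38 (-0.34 ± 0.09) were lower and Cyp7b1 was higher (0.71 ± 0.24). Fasting in CTRL mice lowered 6 (22.8% of all tested probes) and raised 1 (21.1% of all). Hsd3b5 changed by -3.38 ± 0.24, Selenbp2 by -1.69 ± 0.18, Ugt2b38 by -0.47 ± 0.09 and Elovl3 by 1.16 ± 0.25. Of the 12 other CYP4 genes, 8 were tested. In fasted AAKO mice Cyp4f18 (0.45 ± 0.11) and Cyp4f16 (0.33 ± 0.12) were higher and Cyp4f39 (-0.64 ± 0.18) and Cyp4f41-ps (-0.80 ± 0.33) lower. That is 2 higher and 2 lower, where 23.2% and 26.8% of all tested probes were. After CL316243 none was called (23.7% of all). On fasting in CTRL mice, which called 43.9% of all tested probes, Cyp4f16 rose by 0.74 ± 0.12, Cyp4f39 rose by 0.73 ± 0.18 and Cyp4f41-ps changed by -1.02 ± 0.33. Each of these values was called in the limma fit over all tested probes.

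**Figure D4:**
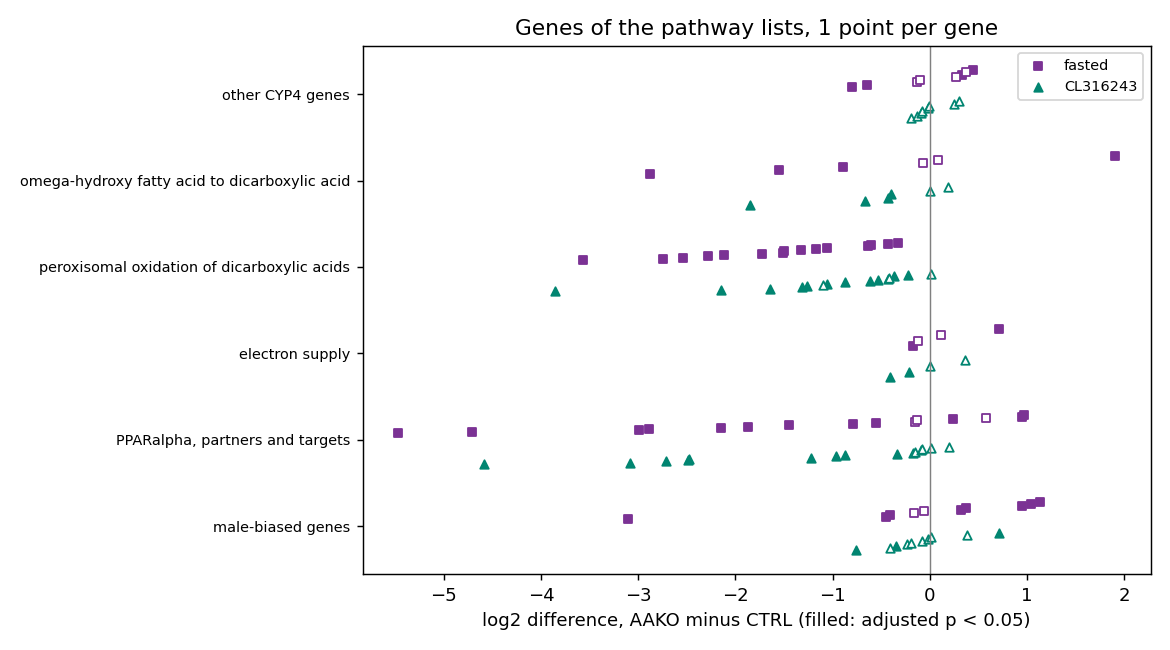
Log2 difference between AAKO and CTRL mice (x axis) for the tested genes of the 6 lists, 1 point per gene, when fasted (squares) and after CL316243 (triangles), filled where called. All 15 genes of the list of peroxisomal import, activation and oxidation lie to the left of 0 when fasted. Those of the male-biased list, which includes Stat5b and Ghr, lie on both sides.

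The genes whose centred profile over the 36 arrays lay nearest to each member, by root mean square difference, differed between the subgroups. Cidec was nearest to Cyp4a10 (0.756), Cyp4a14 (0.997) and Cyp4a31 (0.884), against SDs of these members of 2.69, 2.83 and 2.63; Defb1 came next for Cyp4a10 and Cyp4a31 and Hrob for Cyp4a14. Ampd2, Ces1e and Eci1 were nearest to both Cyp4a12a (0.426 to 0.432) and Cyp4a12b (0.412 to 0.422). Nearest to Cyp4f14 were Cyb5r3 (0.190), Paox (0.201) and Mlxipl (0.217). For Cyp4f15 Fam20b (0.157) and for Cyp4v3 Ugt2b36 (0.130), Grcc10 (0.136) and Fahd2a (0.149) came first.

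RefSeq promoters (GRCm38.p6, 300 bases around the transcription start) were matched for 4 members, Cyp4a32, Cyp4f14, Cyp4f15 and Cyp4v3, with 7 entries in all. None held 2 direct copies of AGGTCA with 1 base between them, the repeat named for PPAR-RXR binding, on either strand, which 0.0396% of 32851 promoters held. None held this repeat with up to 2 mismatches (3.86%) or a single AGGTCA (16.3%), which overlaps the repeat. No match says only that these letters are not in this window. Promoters of Cyp4a10, Cyp4a14, Cyp4a31, Cyp4a12a and Cyp4a12b were not matched, so the inducible genes were not searched.

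Markers of liver zones and of other cell types were read in each group. Between genotypes, 50% of all tested probes were called when fasted (23.2% higher and 26.8% lower in AAKO mice). After CL316243 23.7% were called (11.5% lower). The genotype counts of markers below stand beside these shares. The summed level of 6 periportal markers ran from 11 to 11.08 in fasted AAKO and from 10.87 to 11.01 in CL316243-treated AAKO mice, and from 10.51 to 10.93 in the other 4 groups, and 3 of the 6 were called higher in AAKO mice in both conditions. The 6 pericentral markers summed to between 10.18 and 10.64 in all groups, with 3 lower in fasted AAKO mice and 1 lower after CL316243. The neutrophil markers summed to between 3.36 and 6.87 in fasted AAKO mice and between 1.70 and 6.21 in fasted CTRL mice, with 2 of 5 higher. The stellate markers ran from 6.77 to 7.17 in fasted AAKO and from 6.38 to 6.71 in fasted CTRL mice, with 2 of 4 higher. Of the hepatocyte markers 4 were lower and 1 higher in fasted AAKO mice, 2 of 4 endothelial markers were higher and 2 of 4 cholangiocyte markers lower, in a comparison that called 50% of all tested probes. Kupffer markers were called in no genotype comparison. Against fed mice, 4 of 5 Kupffer markers were lower after CL316243 in both genotypes (medians -1.11 in CTRL and -1.21 in AAKO), 3 of 4 stellate markers were lower in both, and 3 of 4 endothelial markers were lower in CTRL and 1 of 4 in AAKO mice, where 23.5% (CTRL) and 31.2% (AAKO) of all tested probes were called. Of 3 kidney markers, 1 passed the background filter for testing, and Umod was well above background on no array. All 3 adipocyte markers passed the filter, and they summed to between -0.56 and 0.33. The part of these in the member values was not tested.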

How the data were processed

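The authors deposited scanner files of spot intensity from Agilent's scanner software (Feature Extraction 10.10.1.1 in the notes and the file headers), with background subtracted in the processed signal and probe coordinates on mm9, and 0 or 1 marks for outlying, saturated and well above background spots (deposited as other values). They also deposited a table of log2 values for 36898 probes, whose normalization is not given in the sources used here; its arrays held the same sorted values within each of the 6 groups, and its column medians and filter are unexplained. Its group medians ran from 6.88 (AAKO CL316243) to 7.01 (AAKO fasted). The submitters' processing notes name limma.

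Here log2 of the processed signal intensity was used, without spots marked as outliers (2701, 0.127%; none of the member probes, none saturated), averaged per probe and set against the 75th percentile of the array. Tests used limma 3.58.1 in R 4.3.3, on all 36 arrays with 6 group means and the wash batch, two-sided, in 12 contrasts. The script was tested on simulated data. Precision is limited by 6 arrays per group. Genes other than members were named through RefSeq (GRCm38.p6, names only), which matched 32994 probes, and the probe with the highest mean stood for each list gene. Every member probe was named. From each list the 2 lowest and 2 highest called genes were named in 3 comparisons, and the 3 genes most alike were sought for each member. Some genes that this rule names are not reported here. Members and lists were chosen with earlier results of these data known. Replicate numbers did not pair the mice (mean correlation of deviations -0.00070, from -0.27 to 0.32). Alternatives changed the background correction, scaling, filter, probes, wash batch, slide and arrays.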

Additional observations from a re-analysis of the deposited data

Results flagged for a closer look

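Among the 66 sets of 6 values (11 probes in 6 groups), 2 held a mouse set apart from the others of its group, and chance gives about 1 in 20. Cyp4a12b read 5.04 in CTRL fasted replicate 5, where the other 5 mice ran from 5.90 to 6.28. Cyp4v3 read 6.13 in AAKO CL316243 replicate 4, where the others ran from 5.79 to 5.87.

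Genotype differences that changed with the condition, in a test of the change itself, were as follows. From fed to fasted the change was -3.19 for Cyp4a14 and -1.15 for Cyp4a31 A_55_P2024033. From fed to CL316243 it was -2.28 for Cyp4a10 A_52_P257774, -1.82 for Cyp4a10 A_55_P2092030, -2.67 for Cyp4a14, -2.33 and -2.41 for Cyp4a31 A_55_P2024033 and A_55_P2050628, and -0.49 for Cyp4f15. Between CL316243 and fasting it was 1.5 for Cyp4a10 A_52_P257774, 1.18 and 2.04 for the same Cyp4a31 probes, 0.62 for Cyp4f14, 0.72 for Cyp4f15, -1.14 for Cyp4a12a and -1.07 for Cyp4a12b.

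A probe outside the gene list gave signal in 1 condition. A_55_P2570418 carries no gene name in the files and was singled out after its values were seen. It was placed at chr4:115168001-115168060 on mm9, with 548 bases between it and the Cyp4a14 probe, and its coordinates are listed in the opposite orientation.
A_55_P2570418: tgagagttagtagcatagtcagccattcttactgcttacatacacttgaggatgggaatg
It passed the background mark on 6 of 6 CTRL fasted arrays, with a mean of -1.27 ± 0.27 (SD, n = 6) and values from -1.58 to -0.95, and on none of the fed or CL316243 arrays. Against those 4 groups it was at least 19.7-fold (CTRL fed), 18.1-fold (AAKO fed), 19.3-fold (CTRL CL316243) and 17.2-fold (AAKO CL316243) higher, taking for each dim array the higher of its own value and its lowest signal well above background. In fasted AAKO mice it was well above background on 3 of 6 arrays, replicates 2, 3 and 6, which were also the 3 mice of that group with the highest Cyp4a14 values (0.41, 0.27 and 0.64, against -1.98 to -0.66 in the others). These 3 are also the wash batch 1 arrays of that group and the other 3 the wash batch 2 arrays, so mouse and batch cannot be told apart here.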

How the results depend on the processing

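The same contrasts were run under 14 other settings and with each array of the compared groups left out in turn. Of 1800 member values under other settings, 38 lost their call, 25 gained one and 1 reversed: Cyp4a31 A_55_P2024033, in the genotype difference of fasted against CL316243 mice, went from 1.18 to -0.20 with normexp correction. Of 1980 values with an array left out, 33 lost their call, 28 gained one and none reversed, and none of the 78 called values moved by over 1.5 times. Another 33 and 59 values, called in neither fit, lay on the other side of 0. In fed mice the count of member probes that differed by genotype went from 0 to 1 with normexp correction and in the authors' table. For the fasting interaction it went from 2 to 4 with normexp correction and to 1 without the filter, with the filter on all 36 arrays (10 member probes), with 1 probe per gene, in wash batch 1, in wash batch 2, with the slide fixed and with the replicate block. With 1 probe per gene, which leaves 8 member probes, counts were 5 for the CL316243 genotype comparison, 5 for fasting in CTRL, 3 for CL316243 in CTRL and 4 for fasted against CL316243 in CTRL. Wash batch 2 alone, with fewer arrays, gave 0 for CL316243 in AAKO, 0 for the CL316243 interaction and 2 for the genotype difference of fasted against CL316243, which was 3 in wash batch 1 and 4 with the slide fixed. The cause was not tested elsewhere. With an array left out the counts ran from 1 to 5 for the fasting interaction, 6 to 7 for the CL316243 interaction, 6 to 8 for their difference, 10 to 11 for the fasted and 8 to 10 for the CL316243 genotype comparison, 0 to 0 for the fed one, 8 to 8 and 11 to 11 for fasting in CTRL and AAKO, 5 to 7 and 2 to 3 for CL316243 in CTRL and AAKO, and 7 to 7 and 11 to 11 for fasted against CL316243 in CTRL and AAKO. The replicate block, whose numbers did not pair the mice, ended the call of the fasting interaction of Cyp4a31 A_55_P2024033 (adjusted p = 0.0518), made one of the CL316243 interaction of Cyp4f14 (adjusted p = 0.0367) and changed no other. With normexp correction the median of all probes in fasted against CL316243 AAKO mice went from -0.07 to -0.13, and the share of called probes that were higher from 45.2% to 32.9% (59.4% in the authors' table). Levels of Cyp4a14 are limited by background in the fed and AAKO CL316243 groups.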
